A study of Mus musculus with 12 samples.

Results

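The comparison described here sets the response of mouse forelimb buds to the loss of Hand2 against their response to a Tbx3 loss allele, gene by gene. All 12 deposited libraries entered, in 4 groups of 3, each library from 1 pair of forelimb buds of a Swiss albino embryo. The Tbx3 series compared wild type with embryos labelled Tbx3-deficient (Tbx3ΔVenus/ΔVenus) at E9.75 to E10.0 (28 to 31 somites). In that allele a Venus reporter with a transcription stop and polyadenylation sequence sits at the start codon of both Tbx3 copies. The Hand2 series held wild-type buds (Prrx1-Cre;Hand2+/+) and Hand2-deficient buds (Prrx1-Cre;Hand2Δ/Δc) at E10 to E10.25 (31 to 33 somites). Both of its groups carried Prrx1-Cre, whose promoter is active in limb mesenchyme, so Hand2 loss there depended on where and when Cre had acted. The series title names shared HAND2 and TBX3 target genes in early limb buds as its subject.

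A limb bud is a core of mesenchyme under an ectodermal jacket, and its posterior mesenchyme holds the signalling centre that secretes Sonic hedgehog (SHH). HAND2, a bHLH transcription factor of the posterior mesenchyme, activates Shh and restrains anterior genes, while TBX3, a T-box factor that mostly represses transcription, is expressed at the anterior and posterior margins. SHH binds the PTCH receptors, GLI factors relay the signal into the nucleus, and the response includes the receptors themselves, Gli1 and the 5′ HoxD genes that shape the digits.

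For each gene, the Hand2 effect was the log2 ratio of Hand2-deficient to wild-type buds, and the Tbx3 effect the same ratio for the libraries labelled Tbx3-deficient. Their difference (the Hand2 effect less the Tbx3 effect) was tested in 1 fit of all 12 libraries with the quasi-likelihood F test of edgeR. Each adjusted p below is from that fit, Benjamini-Hochberg adjusted across 17360 genes, except where an omitted library or another setting is named, for which the fit and the adjustment were repeated. Called genes are those with an adjusted p under 0.05, levels are TMM-scaled CPM (counts relative to the scaled library total), and SE is the standard error. Whether groups overlapped was read for the named genes only and was not counted over all genes tested. Separation of groups of 3 libraries is therefore a description and adds no support to an effect that was not called. Stage, colony, targeted gene and kind of loss differ together between the series and cannot be told apart, and the p-values measure the spread between single pairs of buds. Total counts ran from 23.3 to 31.8 M for Tbx3 libraries and from 60.2 to 68.6 M for Hand2 libraries. Hand2-deficient replicate 1 stood apart with 5.69% of its counts on ribosomal-RNA-like genes against 0.184% to 0.640% in the other 11 libraries. By Xist and Y-linked counts the 3 Tbx3 wild-type embryos were female, as were 1 labelled Tbx3-deficient, 2 Hand2 wild-type and 1 Hand2-deficient embryo, and the other 5 were male. Females were thus more frequent among wild-type than deficient embryos in both series, so sex and genotype are partly confounded in the same direction.

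The response differed for 292 of 17360 genes (1.68%). The Hand2 effect was the higher one for 137 of them (0.789% of the genes tested) and the lower one for 155 (0.893%). Of the 292, 174 were called in the Hand2 comparison alone, 82 in the Tbx3 comparison alone, 23 in both and 13 in neither. The largest classes were 95 genes that rose in Hand2-deficient buds with no called Tbx3 effect, 79 that fell there with none, and 56 that rose in the libraries labelled Tbx3-deficient with no called Hand2 effect. Another 26 fell in the latter libraries without a called Hand2 effect. The median size of the 292 differences was 0.87 on the log2 scale, 128 were at least 1, and the median difference of all genes tested was -0.01. An unadjusted p under 0.05 was reached by 3025 genes.

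Most genes with a called effect in a comparison had no called difference. The Hand2 effect was called for 2004 genes (11.5%; 4.86% higher, 6.69% lower) and the Tbx3 effect for 422 (2.43%; 1.44% higher, 0.991% lower). Both counts moved with the processing. Leaving out 1 library gave 454 to 2148 for Hand2 and 135 to 462 for Tbx3. DESeq2 gave 3466 and 911, limma-voom 3251 and 152, and embryo sex as covariate 1031 and 219. Shares of all genes given here and below are those of the main fit. Of the 2004, 197 (9.83%) had a called difference and 1807 did not, and of the 422 these were 105 (24.9%) and 317. Genes that rose in Hand2-deficient buds had a Tbx3 effect above 0 in 66.9% of 843 cases, with a median Tbx3 effect of 0.09, against 49.8% of all genes tested. For the 1161 that fell, the Tbx3 effect was below 0 in 76.9%, with a median of -0.06. Read the other way, 67.6% of the 250 genes that rose in the libraries labelled Tbx3-deficient had a Hand2 effect above 0 (median 0.15), and 66.9% of the 172 that fell had one below 0 (median -0.08). The 2 comparisons share no library.

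**Figure D1:**
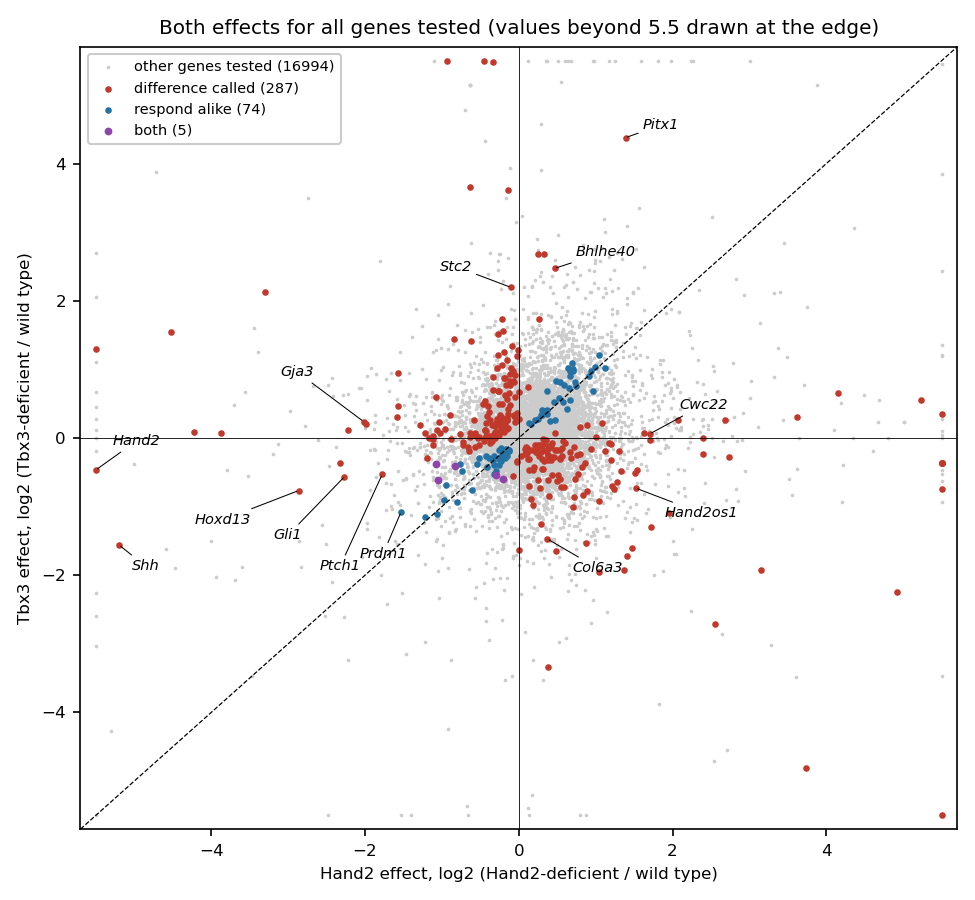
Hand2 effect (horizontal axis, log2) against Tbx3 effect (vertical axis, log2) for the 17360 genes tested, 1 point per gene, with points beyond 5.5 drawn at the edge and a dashed line of equal effects. Genes with a called difference (red) lie off the line, many along the vertical axis above 0 or along the horizontal axis, and genes that responded alike (blue) lie close to it, with 5 genes in both classes (purple).

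Both targeted genes were measured first. Hand2 (ENSMUSG00000038193, GRCm38 chromosome 8, 57320983 to 57324633) stood at 119, 119.5 and 125 CPM in the Hand2 wild-type libraries and at 0.185, 2.2001 and 0.382 CPM in the Hand2-deficient ones. In the Tbx3 series it stood at 107, 100.04 and 116 CPM in wild-type and 87.3, 84.98 and 62.5 CPM in the other libraries. The groups did not overlap in either series, and the Hand2 effect was -7.01 (SE 0.48) against a Tbx3 effect of -0.46 (SE 0.34, adjusted p 0.537). The difference of -6.55 (SE 0.58, adjusted p 4.35e-04) records the deletion itself.

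Tbx3 did not fall in the libraries that carry its label. It stood at 78.6, 78.04 and 79.2 CPM in the wild-type libraries of its series and at 80.7, 79.9 and 73.6 CPM in those labelled Tbx3-deficient, overlapping groups with a Tbx3 effect of -0.01 (SE 0.09, adjusted p 0.973). In the Hand2 series it stood at 88.9, 87.1 and 74.6 CPM in wild-type and 81.8, 63.4 and 67.3 CPM in Hand2-deficient libraries, again overlapping, with a Hand2 effect of -0.24 (adjusted p 0.101). The label describes a loss allele, yet the count did not fall. These are counts of the whole gene, coverage along it was not examined, and the cause was not tested. Each Tbx3 effect here is therefore an effect between the libraries as labelled. In bulk RNA, fewer cells of a type and less RNA per cell cannot be told apart.

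Posterior limb genes differed between the responses in 1 direction. Of 14 posterior genes measured, 5 had a called difference, all with the lower Hand2 effect, and none had a higher one (background 1.68% of all genes). These 5 were Hand2 itself, Shh, Hoxd13, Sall1 and Ets2. The list's median Hand2 effect was -1.26, with 10 members called lower (6.69% of all genes tested). Its median Tbx3 effect was -0.36, with Ets2, Hoxd11 and Hoxd10 called lower (3 members, 0.991% of all genes). The list's median difference was -0.93 against -0.01 for all genes tested. The list includes the deleted gene.

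Shh, the ligand of the posterior signalling centre, stood at 4.18, 10.1 and 7.44 CPM in Hand2 wild-type libraries and 0.0337, 0.44001 and 0.103 CPM in Hand2-deficient ones. It stood at 5.201, 5.38 and 5.14 CPM in Tbx3 wild-type libraries and 2.85, 1.3999 and 1.12 CPM in those labelled Tbx3-deficient. Each series separated its groups, and the 3 Hand2-deficient libraries lay below all others. The Hand2 effect of Shh was -5.20 (SE 0.62), its Tbx3 effect -1.56 (SE 0.53, adjusted p 0.156, not called), and their difference -3.63 (95% interval -5.38 to -1.89, adjusted p 0.0472). That call was lost when any 1 of 11 libraries was left out (adjusted p 0.0564 to 0.105) and kept without Hand2-deficient replicate 2. It was also lost with limma-voom (adjusted p 0.115), with embryo sex as covariate (0.0683) and with the Hand2 counts thinned (0.0589).

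Hoxd13, the 5′ HoxD gene of the digit region, gave 45.8, 58.1 and 65.8 CPM in Hand2 wild-type and 5.54, 10.1 and 7.63 CPM in Hand2-deficient libraries. In the Tbx3 series it gave 41.2, 39.9 and 46.1 CPM in wild-type and 39.1, 15.6 and 20.6 CPM in the other libraries, of which replicate 1 stood just below the wild-type range and the other two at lower levels. The Hand2 effect was -2.86, the Tbx3 effect -0.77 (adjusted p 0.213) and the difference -2.10 (SE 0.42, adjusted p 0.0335). It was kept only without labelled Tbx3-deficient replicate 1 or 2 or Hand2-deficient replicate 2, and the other 9 omissions gave an adjusted p of 0.0517 to 0.0787. Its neighbours in the cluster had wide intervals. Hoxd12 had effects of -4.47 and -1.90 with a difference of -2.57 (95% interval -4.44 to -0.70, adjusted p 0.1597). Hoxd11 had called effects of -2.51 and -1.54, both lower, and a difference of -0.96 (95% interval -1.99 to 0.07, adjusted p 0.3204). Hoxd10 was the member whose Tbx3 effect alone was called, at -0.69 against a Hand2 effect of -0.29, and the interval of its difference ran from -0.02 to 0.83.

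In the libraries labelled Tbx3-deficient, replicate 1 lay nearer to the wild type than the other two for Hoxd13, Hoxd11 and Gli1. Hoxd11 stood at 75.01, 71.6 and 97.6 CPM in wild-type libraries and at 47.5, 14.6 and 22.3 CPM in replicates 1, 2 and 3, and Gli1 showed the same order (25.7, 12.1 and 15.3 CPM). Sall1, a zinc finger gene of the posterior and distal bud, fell from 43.5, 56.3 and 58.4 to 25.03, 22.8 and 21.6 CPM with Hand2 loss. In the Tbx3 series it went from 40.7, 44.4 and 39.3 to 33.8, 38.2 and 29.5 CPM. The groups did not overlap in either series, but only the first effect was called (-1.19 against -0.29, difference -0.90, SE 0.17, adjusted p 0.0244). The Sall1 call was lost without Tbx3 wild-type replicate 1 or 3, labelled Tbx3-deficient replicate 2, Hand2 wild-type replicate 3 or Hand2-deficient replicate 2 or 3 (adjusted p 0.05001 to 0.0611). Ets2, an ETS factor that acts on Shh expression, fell in both, and it is described below among the genes that responded alike. Grem1, the BMP antagonist that links SHH to the apical ridge, had effects of -1.32 and -0.18 and a difference of -1.15 (adjusted p 0.0598).

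Every SHH response gene measured fell with Hand2 loss. All 8 had a called lower Hand2 effect (median -1.50), against 6.69% of all genes tested, and 2 (Ptch1 and Prdm1) had a called lower Tbx3 effect (median -0.55), against 0.991%. The difference was called for 4 (Ptch1, Gli1 and Ccnd1 among them), all with the lower Hand2 effect (0.893% of all genes), and the median difference was -0.70. No member had a difference above 0.

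Ptch1, the main SHH receptor and a direct readout of the signal, gave 108, 120.2 and 118 CPM in Hand2 wild-type and 30.1, 38.8 and 32.1 CPM in Hand2-deficient libraries. It gave 103, 103 and 91.2 CPM in Tbx3 wild-type and 76.7, 63.2 and 66.3 CPM in labelled Tbx3-deficient libraries. Neither pair of groups overlapped, both effects were called, and the fall was 3.43-fold in the first and 1.44-fold in the second. The difference of -1.25 (SE 0.14, adjusted p 0.00235) was called in each of the 12 fits that left out 1 library.

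Gli1, the activator whose transcription reports SHH input, fell from 29.2, 32.9 and 31.4 to 5.22, 7.75 and 6.44 CPM with Hand2 loss, and in the Tbx3 series stood at 26.01, 25.4 and 26.7 and 25.7, 12.1 and 15.3 CPM. Replicate 1 of the latter lay inside the wild-type range. The Gli1 difference was -1.70 (SE 0.31, adjusted p 0.0244), lost without any of the 3 Tbx3 wild-type libraries, Hand2 wild-type replicate 1 or 3 or Hand2-deficient replicate 1 (adjusted p 0.0506 to 0.0587). Ccnd1, the cyclin D1 gene, had a Hand2 effect of -0.52 and a Tbx3 effect of 0.01, with a difference of -0.53 (adjusted p 0.03605) that was lost in 8 of 12 omissions (adjusted p 0.0501 to 0.0883) and kept without Tbx3 wild-type replicate 3, labelled Tbx3-deficient replicate 1, Hand2 wild-type replicate 2 or Hand2-deficient replicate 2.

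The remaining response genes had no called difference, and their intervals differ in what they allow. Prdm1, a zinc finger repressor, had effects of -1.53 and -1.08 with a difference between -0.77 and -0.14. Rasgef1b, a RAS exchange factor, had -0.82 and -0.44, with a difference between -0.82 and 0.05. Hhip, which binds and sequesters the ligand, had -1.47 and -0.59, and the interval of -1.85 to 0.10 allows either no difference or a large one. Osr1, a zinc finger gene of early mesenchyme, was similar with -0.99 and -0.59 (-1.32 to 0.51). The 3 co-receptor genes Boc, Cdon and Gas1 bind SHH at the cell surface and are repressed by the signal. All 3 had a called rise with Hand2 loss (0.59, 0.56 and 0.55), against 4.86% of all genes tested. Their Tbx3 effects were -0.02, 0.18 and 0.27, none called, and no difference was called (adjusted p 0.0845, 0.117 and 0.243).

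**Figure D2:**
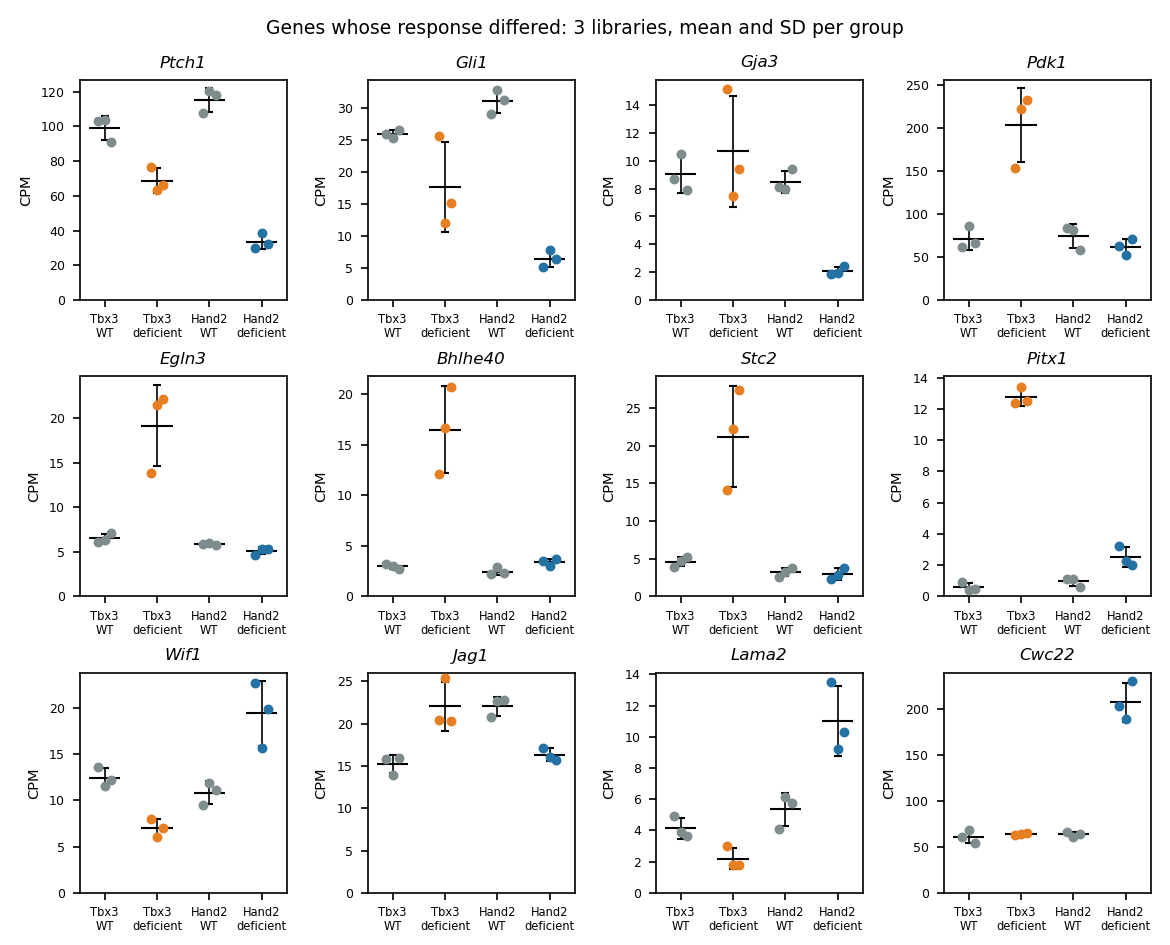
CPM of 12 genes with a called difference in each library (points), with the group mean (horizontal line) and SD (bar) of 3 libraries, for Tbx3 wild-type, labelled Tbx3-deficient, Hand2 wild-type and Hand2-deficient buds. Ptch1, Gli1 and Gja3 were lowest in Hand2-deficient buds, and Pdk1, Egln3, Bhlhe40 and Stc2 were highest in the labelled Tbx3-deficient buds. The effects on Wif1, Jag1 and Lama2 had opposite signs, though the Tbx3 effect on Lama2 was not called.

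FGFs from the apical ridge, the ectodermal rim that sustains outgrowth, showed 1 called difference among 14 pathway genes, against 1.68% of all genes tested. Fgf9, a ridge FGF, gave 1.26, 1.94 and 1.65 CPM and 0.724, 0.713 and 0.853 CPM without and with Hand2 loss, and 1.38, 1.22 and 1.53 CPM and 1.75, 2.35 and 2.16 CPM in the Tbx3 series. The groups separated in both series and moved in opposite directions, with effects of -1.08 and 0.60 (the latter not called, adjusted p 0.166) and a difference of -1.68 (SE 0.29, adjusted p 0.0167). Without labelled Tbx3-deficient replicate 2 its adjusted p was 0.0512. Fgf4, another ridge FGF, was under 4 CPM in all libraries and had a difference of -3.02 (adjusted p 0.0781). Fgf8 and Fgf10, the ridge and mesenchymal FGFs of limb outgrowth, had called lower Hand2 effects (-0.75 and -0.61) beside Tbx3 effects of -0.03 and -0.07, with no called difference (adjusted p 0.0843 and 0.1255).

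Some anterior genes rose in both comparisons. Of 11 measured, 5 had a called higher Hand2 effect (Alx4, Irx3, Asb4 and Irx5 among them; list median 0.60; 4.86% of all genes tested) and 3 a called higher Tbx3 effect (Alx4 and Irx3 among them; median 0.25; 1.44% of all genes). The difference was called for Asb4 alone, and the list's median difference was 0.29. Asb4, a gene for an ankyrin repeat and SOCS box protein, rose from 569, 619.9 and 697 to 1030, 903 and 929.5 CPM with Hand2 loss. Its Tbx3 groups overlapped (808, 722 and 595 against 703, 629.7 and 688 CPM), and the difference was 0.67 (adjusted p 0.0486). That call was kept only without Tbx3 or Hand2 wild-type replicate 3 and otherwise had an adjusted p of 0.057 to 0.122. Asb4 and Lhx2 were the list members just inside the threshold, and Bnip3 (adjusted p 0.0547) and Vegfa (0.0544), from the oxygen response below, were just outside it.

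Genes of the early limb mesenchyme gave 3 called differences of 13 (Prrx2, Tbx18 and Lhx2), each with the higher Hand2 effect, against 0.789% of all genes tested. Prrx2, a paired-type homeobox gene, rose from 137, 135 and 144 to 229, 178 and 197 CPM with Hand2 loss and stood at 161, 147 and 149 and 137, 133 and 135 CPM in the Tbx3 series. The Tbx3 groups did not overlap but their effect of -0.18 was not called (adjusted p 0.261), and the difference of 0.71 (SE 0.11, adjusted p 0.00994) held in all 12 omissions. Tbx18, a T-box gene, had effects of 0.58 and -0.71, neither called (adjusted p 0.0517 and 0.0743), and a called difference of 1.29 (adjusted p 0.0311). Its call was kept without labelled Tbx3-deficient replicate 1, Hand2 wild-type replicate 3 or Hand2-deficient replicate 2 or 3 and lost in the other 8 omissions (adjusted p 0.0525 to 0.0835). Lhx2, a LIM homeobox gene that relays ridge signals, had effects of 0.46 and -0.28 and a difference of 0.74 (adjusted p 0.0485) that was lost in every one of the 12 omissions (0.0591 to 0.106). The list's median difference was 0.30, with median effects of 0.22 and -0.09.

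Pitx1, the homeobox gene that marks hindlimb identity, rose in both comparisons by very different amounts. In forelimb buds of wild-type embryos it was near the lower end of detection, at 0.903, 0.437 and 0.499 CPM in the Tbx3 series and 1.14, 1.099 and 0.632 CPM in the Hand2 series. It reached 12.4, 13.4 and 12.5 CPM in the libraries labelled Tbx3-deficient and 3.25, 2.28 and 2.01 CPM in the Hand2-deficient ones. Neither pair of groups overlapped, the rise was 20.8-fold and 2.62-fold, and the difference was -2.99 (SE 0.40, adjusted p 0.00607), called in all 12 omissions. Among the other hindlimb genes tested, Hoxc9 rose in both (0.64 and 1.02), Isl1 rose with Hand2 loss (1.60, Tbx3 effect 0.77, not called), and Tbx4 and Hoxc10 had no called effect.

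Most genes of the response to low oxygen and of glycolysis rose in the libraries labelled Tbx3-deficient. In cells short of oxygen, HIF transcription factors escape the EGLN prolyl hydroxylases and bind short DNA elements near genes for glucose uptake, glycolysis and vessel growth. Of 18 hypoxia response genes, 15 had a called higher Tbx3 effect (median 0.83), against 1.44% of all genes tested, and 1 (Adm) a called higher Hand2 effect (median -0.04), against 4.86%. The difference was called for 9, all with the lower Hand2 effect (0.893% of all genes), with a list median of -0.90 and 1 member above 0. Of 17 glycolysis genes, 13 had a called higher Tbx3 effect (median 0.69) and none a called Hand2 effect (median -0.12). Here the difference was called for 12, again all in that direction, with a median of -0.94. The 12 counts of called differences with 1 library left out ran from 3 to 12 for the hypoxia list, the fewest without labelled Tbx3-deficient replicate 2, and from 6 to 13 for glycolysis.

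Egln3, a HIF hydroxylase that HIF itself induces, gave 6.06, 6.39 and 7.097 CPM in Tbx3 wild-type and 13.9, 21.5 and 22.1 CPM in labelled Tbx3-deficient libraries. It gave 5.92, 6.06 and 5.73 CPM in Hand2 wild-type and 4.65, 5.37 and 5.34 CPM in Hand2-deficient libraries. The first pair of groups differed 2.95-fold and the second pair did not overlap but differed by -0.21 with no call (adjusted p 0.396). The difference was -1.76 (SE 0.22, adjusted p 0.00505) and held in all 12 omissions.

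Pdk1, a kinase that keeps pyruvate out of the mitochondrial cycle, went from 61.5, 85.8 and 65.8 to 154, 223 and 233 CPM in the Tbx3 series and from 83.8, 81.6 and 58.3 to 62.3, 51.8 and 70.6 CPM in the Hand2 series, where the groups overlapped (difference -1.79, SE 0.27, adjusted p 0.00994). Bhlhe40, a bHLH repressor, went from 3.22, 3.02 and 2.69 to 12.1, 16.6 and 20.8 CPM against 2.18, 2.86 and 2.33 to 3.49, 3.02 and 3.69 CPM (difference -2.01, SE 0.27, adjusted p 0.00567). Both calls held in all 12 omissions. Stc2, a secreted stanniocalcin outside the lists, went from 3.95, 4.72 and 5.18 to 14.05, 22.2 and 27.3 CPM and from 2.64, 3.24 and 3.76 to 2.26, 2.898 and 3.81 CPM (difference -2.30, adjusted p 0.0108), and its Hand2 groups overlapped.

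For the other called oxygen genes, at least 1 omission ended the call, and the libraries that decided it varied. Ndrg1, a stress-responsive gene, had effects of 1.74 (Tbx3) and -0.22 (Hand2), and its call was kept in 5 of 12 omissions (without Tbx3 wild-type replicate 3, labelled Tbx3-deficient replicate 1, Hand2 wild-type replicate 1 or 2 or Hand2-deficient replicate 3; otherwise adjusted p 0.053 to 0.0698). Ankrd37, an ankyrin repeat gene under 11 CPM, had 1.28 and -0.01, and its call was kept only without Tbx3 wild-type replicate 3 or labelled Tbx3-deficient replicate 1 (otherwise 0.0635 to 0.0952). Slc2a1, the glucose transporter GLUT1, had 0.83 and -0.07, kept without those libraries or Hand2-deficient replicate 3 (otherwise 0.0525 to 0.0736). P4ha1, a collagen prolyl hydroxylase, had 0.82 and -0.07, kept only without labelled Tbx3-deficient replicate 1 or Hand2-deficient replicate 3 (otherwise 0.0508 to 0.0942). Ero1l, an oxidase of the endoplasmic reticulum, had 0.78 and -0.11 and was lost without Tbx3 wild-type replicate 3, labelled Tbx3-deficient replicate 2, Hand2 wild-type replicate 1 or Hand2-deficient replicate 1 (0.0513 to 0.0546). Egln1, the main HIF hydroxylase, had 0.67 and 0.00 and was lost without labelled Tbx3-deficient replicate 2 or Hand2 wild-type replicate 1 (0.0501 and 0.0522). Hif1a itself had effects of -0.19 and -0.18, neither called, with a difference between -0.16 and 0.18.

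Adm, the vasodilator adrenomedullin, was the hypoxia gene that rose in both. Its Tbx3 effect was 2.19 and its Hand2 effect 1.03, with a difference of -1.17 that was not called (adjusted p 0.0748). Vegfa, Bnip3, Ddit4 and P4ha2 had called Tbx3 effects of 0.63, 1.59, 1.55 and 0.79 and Hand2 effects of 0.10, 0.24, 0.37 and 0.11. Their differences did not pass the test.

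Among the enzymes of glycolysis, Tpi1, which interconverts the triose phosphates, went from 574, 608 and 589 to 899.6, 1237 and 1251 CPM in the Tbx3 series. In the Hand2 series it went from 526, 537 and 499.5 to 430.2, 473 and 537 CPM, overlapping groups, for a difference of -1.05 (SE 0.16, adjusted p 0.00994). Pfkfb3, which makes an activator of phosphofructokinase, had effects of 1.02 and -0.28 with a difference of -1.30 (adjusted p 0.0134). Aldoa (aldolase) and Gpi1 (phosphoglucose isomerase) had differences of -0.95 and -0.63 (adjusted p 0.0104 and 0.0134), and the calls of these 4 genes held in all 12 omissions. The other 8 called enzymes and transporters (Pfkp, Slc16a3, Pfkl, Ldha, Pgk1, Hk2, Pgam1 and Pkm) had differences from -1.46 to -0.72. Pfkm, Hk1, Eno1, Gapdh and Pfkfb4 were not called for the difference.

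Taken over all 35 members of both lists, the median log2 level against the own wild-type mean was 0.53, 0.87 and 0.95 in labelled Tbx3-deficient replicates 1, 2 and 3. It was -0.18, -0.10 and 0.10 in the Hand2-deficient replicates and between -0.04 and 0.04 in the 6 wild-type libraries. Replicate 1 of the labelled Tbx3-deficient group, the one with the higher Hoxd11, Hoxd13 and Gli1 levels, was also the lowest here. Red cell markers (12 of 12 tested, none called in any contrast) had a median difference of 0.49, and their summed level was 3314 to 5420 CPM and 2378 to 4651 CPM in the Tbx3 wild-type and labelled Tbx3-deficient libraries. It was 2829 to 4647 and 3833 to 4534 CPM in the Hand2 wild-type and Hand2-deficient ones. Mitochondrially encoded genes (10 tested, no difference called) had a median difference of 0.50. The part of red cells in these differences was not tested.

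**Figure D3:**
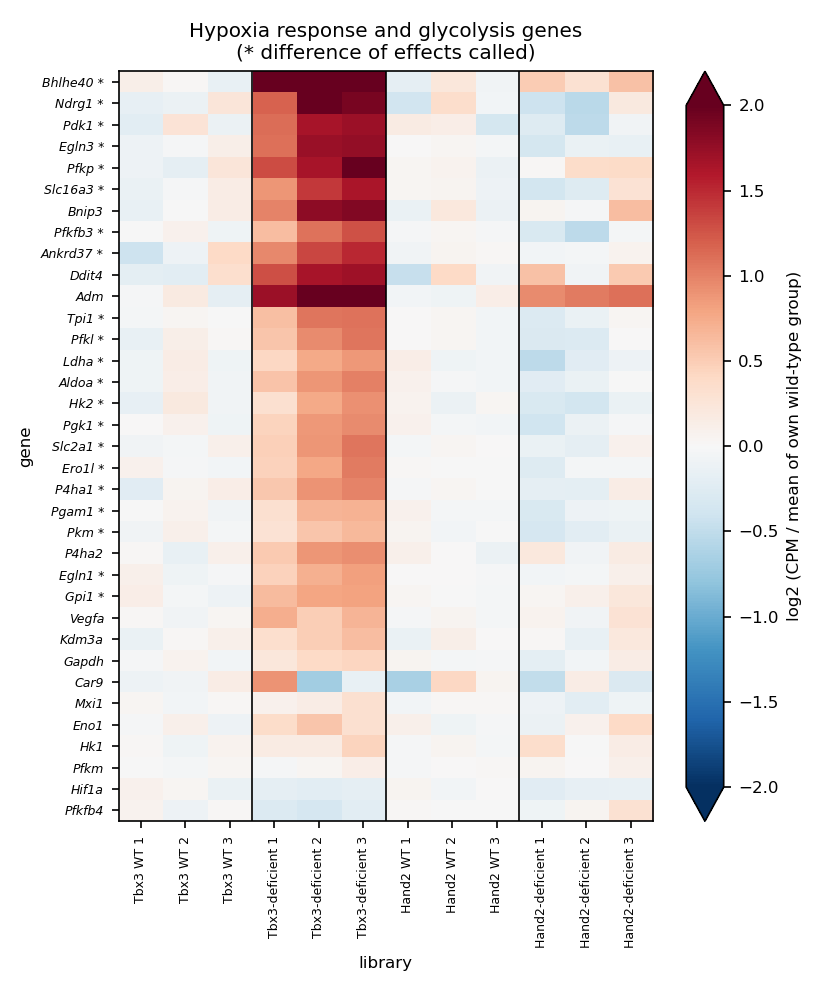
Log2 of CPM over the mean of the own wild-type group for 35 hypoxia response and glycolysis genes (rows, an asterisk marks a called difference) in the 12 libraries (columns), with colours saturating at 2. Most rows are red in the 3 labelled Tbx3-deficient columns, palest in replicate 1, and near white or pale blue in the 3 Hand2-deficient columns.

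The promoters of these genes were read for the core of the hypoxia response element, since the members moved together. RefSeq promoter windows on GRCm38.p6 (250 bases before to 50 after the transcript start) were available for 11791 of the genes tested. A gene counted as holding a motif if any of its windows did. ACGTG, on either strand, was present in 28.4% of the genes with a window. It was present in 12 of the 15 hypoxia response genes with a window (80%) and in 11 of 17 glycolysis genes (64.7%). These shares describe the listed genes and use no count from the libraries. Of genes with a called difference it was present in 49 of 107 with the lower Hand2 effect (45.8%) and 21 of 100 with the higher one (21%). It was also frequent in sets outside the oxygen response: 20 of 47 genes with a called difference that fell with Hand2 loss and had no called Tbx3 effect (42.55%), 9 of 22 genes that rose alike (40.91%) and 4 of 10 posterior genes. The E-box CATCTG can be bound by bHLH pairs of the HAND2 type. Among the called genes with the lower and the higher Hand2 effect, it was in 14.02% and 19%, against 13.9% of all. In the same 2 sets the T-box element AGGTGT was in 9.35% and 15%, against 13.1% of all. These are matches of letters and not binding sites. Among hypoxia genes with a called difference, Slc2a1 and P4ha1 had a match, and Pdk1 had none in either of its windows. The windows of 3 others, picked as examples, are shown with that of Ptch1, an SHH response gene without a match. The windows shown run 5′ to 3′ on the gene's own strand, capitals marking ACGTG. They lie at chr12:54203825-54204124 (Egln3, minus strand, match at -229 from the transcript start), chr8:124949205-124949504 (Egln1, minus, match at -68), chr8:45999801-46000100 (Ankrd37, minus, 2 matches) and chr13:63565686-63565985 (Ptch1, minus).
Egln3: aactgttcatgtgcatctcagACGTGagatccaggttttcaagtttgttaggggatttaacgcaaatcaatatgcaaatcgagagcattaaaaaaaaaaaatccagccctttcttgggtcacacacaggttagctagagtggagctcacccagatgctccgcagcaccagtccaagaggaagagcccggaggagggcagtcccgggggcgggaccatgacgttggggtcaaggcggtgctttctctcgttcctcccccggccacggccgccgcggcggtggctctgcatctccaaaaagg
Egln1: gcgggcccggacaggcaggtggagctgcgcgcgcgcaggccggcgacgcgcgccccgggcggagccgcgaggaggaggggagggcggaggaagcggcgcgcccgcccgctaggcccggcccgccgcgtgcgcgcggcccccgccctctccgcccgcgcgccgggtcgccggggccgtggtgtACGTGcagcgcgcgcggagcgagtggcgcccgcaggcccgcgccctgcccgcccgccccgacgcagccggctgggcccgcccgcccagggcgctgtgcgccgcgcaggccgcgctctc
Ankrd37: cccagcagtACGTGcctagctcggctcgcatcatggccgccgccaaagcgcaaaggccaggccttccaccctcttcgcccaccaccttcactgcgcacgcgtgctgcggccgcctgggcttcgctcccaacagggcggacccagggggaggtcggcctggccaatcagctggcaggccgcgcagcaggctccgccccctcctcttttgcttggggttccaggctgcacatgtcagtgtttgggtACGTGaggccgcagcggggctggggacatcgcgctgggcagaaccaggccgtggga
Ptch1: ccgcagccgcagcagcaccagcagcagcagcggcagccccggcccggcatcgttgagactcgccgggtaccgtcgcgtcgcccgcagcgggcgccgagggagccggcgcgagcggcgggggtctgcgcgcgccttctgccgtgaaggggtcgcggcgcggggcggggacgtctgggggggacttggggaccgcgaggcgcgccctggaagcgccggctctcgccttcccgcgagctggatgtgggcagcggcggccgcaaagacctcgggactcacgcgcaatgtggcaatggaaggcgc

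Among the genes outside the lists that fell with Hand2 loss, Gja3, a connexin of gap junctions, gave 8.11, 7.98 and 9.38 CPM in wild-type and 1.89, 1.96 and 2.44 CPM in Hand2-deficient libraries. The Tbx3 groups overlapped at 8.68, 10.5 and 7.94 and 15.1, 7.51 and 9.41 CPM, and the difference of -2.26 (SE 0.32, adjusted p 0.00734) held in all 12 omissions. Pianp, a transmembrane protein gene, had effects of -1.57 and 0.46 (difference -2.03, adjusted p 0.03605), a call kept only without Hand2-deficient replicate 1 (otherwise 0.0501 to 0.0780).

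Among curated genes of at least 5 CPM, the largest positive difference was that of Hand2os1, the antisense gene that overlaps Hand2. It gave 6.87, 8.74 and 8.21 CPM in Hand2 wild-type and 20.6, 26.6 and 21.3 CPM in Hand2-deficient libraries, and 5.89, 4.72 and 8.401 and 4.56, 4.14 and 2.79 CPM in the Tbx3 series. Both series separated their groups in opposite directions, with a called Hand2 effect of 1.52, a Tbx3 effect of -0.73 (adjusted p 0.124) and a difference of 2.25 (SE 0.31, adjusted p 0.00686). Whether counting used the strand is not given in the sources used here, so reads of Hand2 and Hand2os1 cannot be told apart with certainty.

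Lama2, a laminin chain of the basement membrane, went from 4.12, 6.13 and 5.79 to 13.5, 9.23 and 10.3 CPM with Hand2 loss and from 4.901, 3.89 and 3.64 to 3.01, 1.81 and 1.79 CPM in the Tbx3 series. The groups separated both times, upward and downward. Its Hand2 effect of 1.04 was called (adjusted p 0.0167) and its Tbx3 effect of -0.92 was not (adjusted p 0.0804). The difference was 1.96 (SE 0.33, adjusted p 0.0153, and 0.0506 without labelled Tbx3-deficient replicate 2). Col6a3, a collagen VI chain, fell from 10.4, 13.1 and 7.21 to 3.91, 3.69 and 3.46 CPM in the libraries labelled Tbx3-deficient, while its Hand2 groups overlapped at 10.9, 16.5 and 12.2 and 20.8, 12.5 and 17.9 CPM. Its difference of 1.84 (adjusted p 0.0238) was lost without Tbx3 wild-type replicate 1, labelled Tbx3-deficient replicate 2 or 3, Hand2 wild-type replicate 1 or 3 or Hand2-deficient replicate 1 (0.0516 to 0.0675). Sned1, a matrix glycoprotein, had effects of 1.33 and -0.49 (difference 1.81, adjusted p 0.0407), kept only without Tbx3 wild-type replicate 2, labelled Tbx3-deficient replicate 1 or Hand2 wild-type replicate 2 (otherwise 0.0554 to 0.106).

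Cwc22, a splicing factor, had the smallest adjusted p among genes with a curated symbol. It gave 66.1, 60.7 and 64.6 CPM in Hand2 wild-type and 204, 189 and 231 CPM in Hand2-deficient libraries, against 61.4, 68.5 and 54.5 and 63.1, 63.7 and 65.4 CPM in the Tbx3 series. The 3 Hand2-deficient libraries stood above the other 9, which shared 1 range, and the difference was 1.64 (SE 0.12, adjusted p 7.55e-05). The genes Gm13693, Gm13694, Gm13696, Gm13697 and Gm13698, with counts identical to each other, had a Hand2 effect of 6.45 and a difference of 6.82. Near-identical copies can share reads, so Cwc22 and these genes are reported as uncertain. Klf11, a Krüppel-like factor, rose from 11.1, 10.1 and 10.6 to 17.4, 17.04 and 16.7 CPM with Hand2 loss and stood at 16.5, 14.3 and 13.7 and 12.7, 12.1 and 11.7 CPM in the Tbx3 series (difference 0.97, SE 0.12, adjusted p 0.00388).

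Further large positive differences were those of Pcdhgb6, a clustered protocadherin (1.66, adjusted p 0.0143), Nrk, an X-linked kinase (1.58), and Entpd1, an ectonucleotidase (1.52). Pcdhgb6 held in all 12 omissions. Nrk was kept without Tbx3 or Hand2 wild-type replicate 2, labelled Tbx3-deficient replicate 1 or Hand2-deficient replicate 2 or 3 (otherwise 0.061 to 0.0742). Entpd1 was kept without Hand2 wild-type replicate 2 (otherwise 0.0553 to 0.112).

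Of the genes called in both comparisons, 16 moved in opposite directions (0.0922% of the genes tested). All 16 had a called difference: 7 rose with Hand2 loss and fell in the libraries labelled Tbx3-deficient, and 9 did the reverse. Wif1, a secreted WNT inhibitor, rose from 9.44, 11.9 and 11.2 to 22.7, 15.7 and 19.8 CPM and fell from 13.5, 11.6 and 12.2 to 7.98, 6.05 and 6.996 CPM in the Tbx3 series. Neither pair of groups overlapped, and the effects of 0.84 and -0.83 gave a difference of 1.67 (SE 0.21, adjusted p 0.00519). Jag1, a NOTCH ligand, fell from 20.8, 22.6 and 22.8 to 17.2, 16.1 and 15.8 CPM and rose from 15.8, 13.95 and 15.9 to 20.5, 25.4 and 20.3 CPM in the Tbx3 series. Again the groups separated, with a difference of -0.97 (SE 0.13, adjusted p 0.00688).

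Cpxm1, a secreted carboxypeptidase-like protein, had small and even effects. It gave 34.4, 36.5 and 35.4 and 42.95, 42.9 and 41.5 CPM in Hand2 wild-type and Hand2-deficient libraries, and 35.7, 35.3 and 35.7 and 30.8, 29.1 and 29.3 CPM in the Tbx3 series. Effects of 0.26 and -0.26 gave a difference of 0.52 (SE 0.06, adjusted p 0.00221). Also higher with Hand2 loss and lower in the libraries labelled Tbx3-deficient were Pcdh17, a protocadherin (0.55 and -0.72), Gja4, an endothelial connexin (0.43 and -0.54), and Ttc9c, a tetratricopeptide repeat gene (0.38 and -0.61). Alkbh5, an RNA demethylase (-0.23 and 0.30), and Map1b, a microtubule-associated protein (-0.26 and 0.49), moved the reverse way. The differences of these 8 genes held in all 12 omissions. Being called in both single comparisons was less stable: Cpxm1 alone of the 16 kept both calls, in opposite directions, in all 12 omissions.

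In the same direction, 91 genes were called in both comparisons (0.524% of the genes tested), 42 higher and 49 lower. They made up 4.54% of the genes called for Hand2 and 21.6% of those called for Tbx3. For 32 the Hand2 effect was the larger and for 59 the Tbx3 effect. A missed threshold does not show likeness, so a gene was said to respond alike only if the 95% interval of its difference lay within -1 to 1. That held for 79 genes (0.455%), 36 higher and 43 lower, and 48 had an interval within 0.5 on either side. Of the 79, 5 (Ets2, Olfm1, Frem1, Lpar4 and Dcun1d4) also had a called difference of less than 1. The limit of 1 is wider than many of the effects it judged, such as -0.13 (Hand2) and -0.17 (Tbx3) for Fbxo22. Responding alike therefore bounds the difference and does not show equal effects, and Frem1 had -1.08 and -0.37. All genes called in both comparisons were chosen by the effects themselves, so their values are a description.

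Alx4, a homeobox gene of the anterior mesenchyme, stood at 88.7, 92.5 and 95.96 CPM in Hand2 wild-type and 212, 167 and 165 CPM in Hand2-deficient libraries. It stood at 100.03, 84.3 and 90.6 CPM in Tbx3 wild-type and 133, 152 and 156 CPM in labelled Tbx3-deficient libraries. Both pairs of groups separated, with effects of 0.97 and 0.68 and a difference between -0.02 and 0.59. Irx3, an Iroquois homeobox gene, had 0.63 and 0.43 (difference between -0.08 and 0.48).

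Hoxc8, a Hox gene of the trunk and proximal limb, gave 13.97, 9.66 and 9.37 and 17.8, 16.9 and 19.4 CPM without and with Hand2 loss, and 10.8, 12.1 and 10.5 and 21.6, 22.4 and 22.96 CPM in the Tbx3 series. Its groups did not overlap in either series, and the difference lay between -0.71 and 0.13. Hoxc6 (0.46 and 0.53), Hoxc9 (0.64 and 1.02) and Hoxb7 (0.58 and 0.78) also responded alike, as did Hoxaas2, a noncoding gene of the HoxA cluster (0.70 and 1.10). Hoxc6, Hoxc8 and Hoxc9 kept this status in all 12 omissions.

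Other genes that rose alike had larger spreads. Cav1, the caveolin of membrane invaginations, had effects of 1.12 and 1.01 (difference between -0.54 and 0.76). Ccn4, a matricellular protein, had 0.75 and 0.75 (between -0.55 and 0.54), Aplp1, an amyloid precursor-like protein, 0.73 and 0.82, and Hs3st3a1, a heparan sulfate sulfotransferase, 0.67 and 0.90. Slit1 (1.05 and 1.21), a guidance cue, Olfm2 (1.00 and 1.04) and Ncam1 (0.67 and 0.97), an adhesion molecule, belong to the same set but lie outside the rule for named genes, and were picked after their values were seen.

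Among the genes that fell alike, Prdm1 gave 14.9, 14.6 and 13.99 CPM in Hand2 wild-type and 5.04, 5.33 and 4.68 CPM in Hand2-deficient libraries, and 15.3, 18.7 and 16.5 and 7.66, 8.94 and 7.33 CPM in the Tbx3 series. The groups lay well apart in both, with effects of -1.53 and -1.08. Olfm1, a secreted olfactomedin, fell from 88.7, 94.1 and 89.5 to 43.5, 44.2 and 44.02 CPM and from 91.99, 92.2 and 96.1 to 65.6, 61.4 and 57.3 CPM. It fell more with Hand2 loss, by a called difference of -0.44 (SE 0.07, adjusted p 0.00994). Ets2 fell from 223, 220.3 and 232 to 123, 127 and 130.2 CPM and from 209, 236 and 205 to 173, 164 and 154 CPM, with a called difference of -0.42 (SE 0.08, adjusted p 0.0332). That difference was kept without Tbx3 or Hand2 wild-type replicate 2, labelled Tbx3-deficient replicate 1 or 3 or Hand2-deficient replicate 3, and lost in the other 7 omissions (0.0565 to 0.0817).

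Sel1l3 had almost equal effects, -0.98 and -0.91 (difference between -0.44 and 0.30). Ccser1 (-0.95 and -0.69), the kinase gene Nim1k (-0.80 and -0.94), Hsd11b2, whose enzyme inactivates glucocorticoids (-0.74 and -0.48), and the sorting nexin Snx7 (-0.41 and -0.43) made up the rest of the named set. Of the 79 genes, 12 were again called in both with the interval within 1 in all 12 omissions: Alx4, Hoxc6, Hoxc8, Hoxc9, Fzd1 and Gap43 with Prdm1, Ets2, Olfm1, Sel1l3, Aif1l and Dcun1d4. With embryo sex as covariate, 23 of the 79 kept this status. Cav1, Irx3, Ccn4, Aplp1, Hs3st3a1, Hoxaas2, Ccser1, Hsd11b2, Nim1k and Snx7 were among those that lost it. Macrophage markers (9 tested) had median effects of 1.38 with Hand2 loss and 1.62 in the Tbx3 series. In the first 2 members were called and in the second none, against 11.5% and 2.43% of all genes tested. Their summed level was 4.8 to 8.2 and 10.1 to 19.7 CPM in Hand2 wild-type and Hand2-deficient libraries, and 1.8 to 5.3 and 8.0 to 10.1 CPM in the Tbx3 series, with Adgre1, C1qa and Fcgr3 at 0 in at least 1 library. Body wall and coelomic markers (6 tested) had medians of 1.43 and 1.68 and 1 called effect, Gata4 with Hand2 loss. The part of such cells in the shared rises was not tested.

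**Figure D4:**
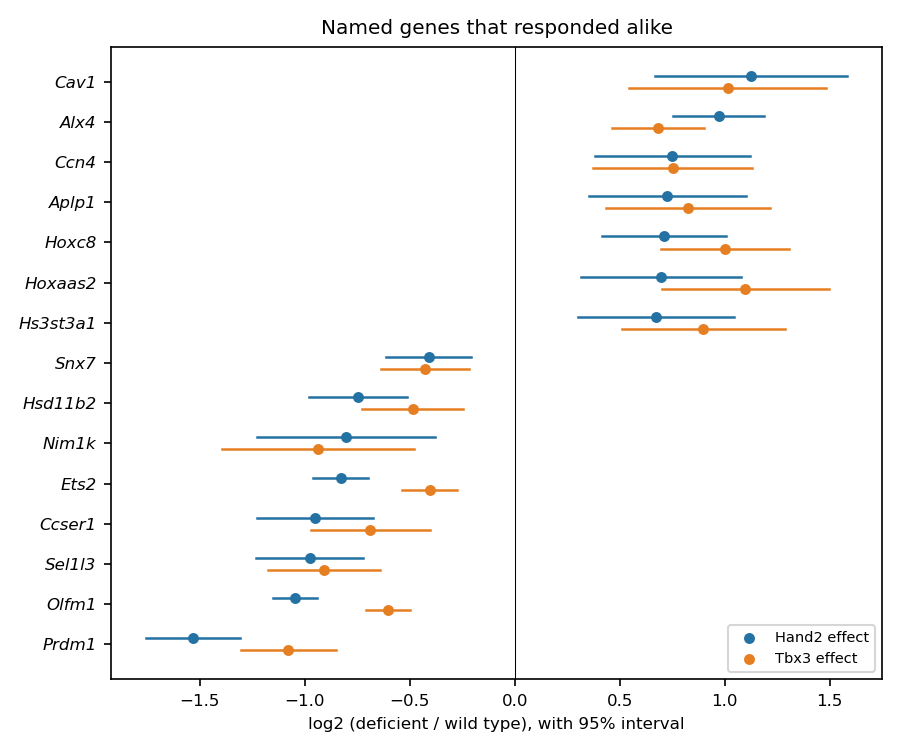
Hand2 effect (blue) and Tbx3 effect (orange) with 95% intervals, on a log2 scale, for the 15 named genes that responded alike. Both points of a gene lie on the same side of 0, and the pairs of Ets2, Olfm1 and Prdm1 have intervals that do not overlap.

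The other lists gave few or no called differences, where 1.68% of all genes tested had one. In lists this small, having no call says little about the list. In the retinoic acid list (14 genes), Crabp2, a carrier of retinoic acid in the cell, had 1 called difference of 0.32 (adjusted p 0.0335; kept only without labelled Tbx3-deficient replicate 1, otherwise 0.0549 to 0.0946), its level going from 336, 337 and 348 to 300.4, 275 and 301 CPM in the Tbx3 series and from 348, 360.1 and 369.6 to 382, 382 and 394 CPM in the Hand2 series. No difference was called among 13 BMP, 13 WNT, 8 apical ridge and ectoderm, 10 early cartilage, 6 proximal, 6 HoxA and early HoxD, 12 p53 target, 10 ATF4 stress, 10 immediate early or 13 proliferation genes. In that last list 6 genes had a called lower Hand2 effect (6.69% of all genes tested). None had a called Tbx3 effect (2.43% of all genes), but the median difference was -0.15. Cldn6, a tight junction claudin, was the called member of 12 epithelial markers (-0.57, adjusted p 0.01097). The other 9 marker lists (blood, vessel, muscle, nerve, somite, body wall and heart cells) had none.

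**Figure D5:**
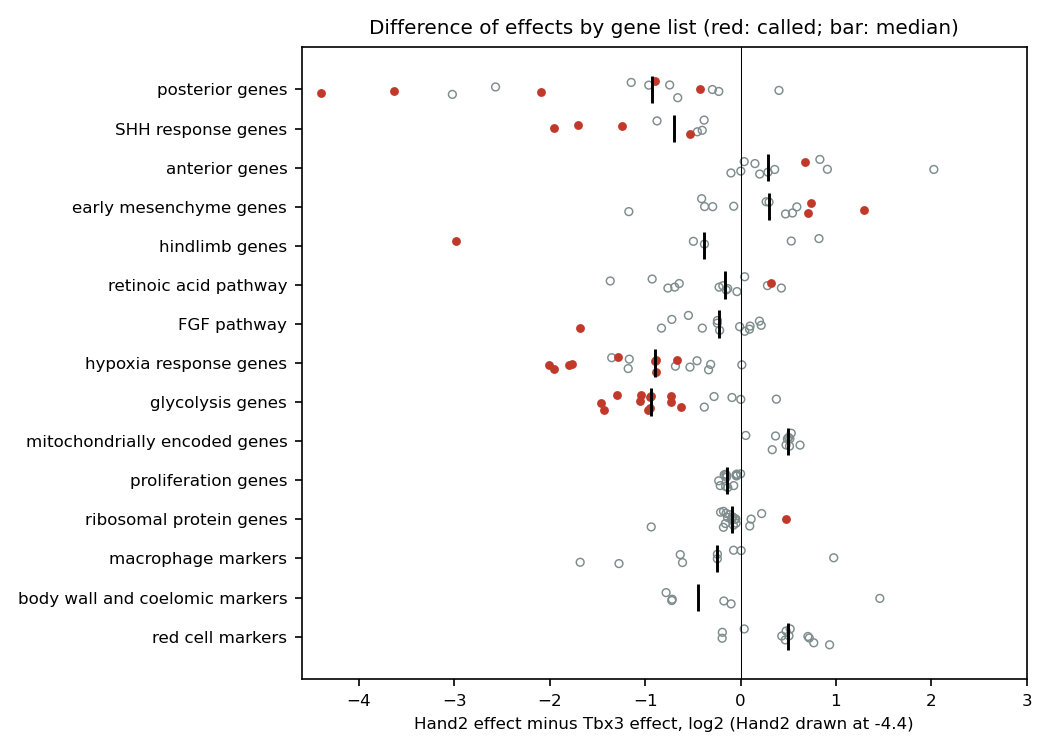
Difference of effects (Hand2 minus Tbx3, log2) for each measured member of 15 gene lists, with called differences in red and the list median as a bar, and Hand2 drawn at -4.4. Called members of the posterior, SHH response, hypoxia and glycolysis lists lie below 0 without exception, and those of the early mesenchyme list above 0.

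Genes near the engineered loci were counted apart. Within 20 Mb of Tbx3 on chromosome 5, 15 of 501 genes tested had a called difference (2.99%), against 1.68% of all genes. Within 20 Mb of Hand2 on chromosome 8 it was 6 of 237 (2.53%), Hand2, Hand2os1 and Ankrd37 among them. Within 10 Mb the counts were 11 of 261 (4.21%) near Tbx3 and 4 of 53 (7.55%) near Hand2, the deleted gene included. Gltp, a glycolipid transfer protein gene (chromosome 5, 114669398 to 114690984), fell from 29.4, 28.4 and 30.3 to 19.2, 18.04 and 17.3 CPM in the Tbx3 series and stood at 31.5, 34.4 and 32.8 and 36.9, 35.4 and 35.5 CPM in the Hand2 series. Its difference was 0.82 (SE 0.08, adjusted p 5.56e-04). Rplp0, a ribosomal stalk protein gene on the same chromosome (115559467 to 115563727), fell from 2355, 2372 and 2293 to 1477, 1701 and 1583 CPM against 2243, 2247 and 2188 to 2035, 2126 and 2160 CPM (difference 0.48, SE 0.07, adjusted p 0.00774). Rplp0-ps1, its processed copy, stood at 28.7 CPM in the labelled Tbx3-deficient libraries and 0.0563 CPM in their wild type. How far reads were split between copies was not tested, and the Rplp0 value is uncertain. Both genes held their calls in all 12 omissions, and the part of the flanking chromosome was not tested.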

How the data were processed

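Bulk RNA of forelimb buds was sequenced in 12 libraries, 3 per group (RNeasy extraction, RNA integrity number of at least 8, SMARTer libraries, single-end reads of 85 bases on a NextSeq 500, per the labels' protocols). The authors deposited RSEM expected counts per Ensembl gene and library, not normalised, and the submitters' processing notes name FastQC 0.11.4, STAR 2.5.2, RSEM 1.3.0 and mm10. The sources used here give neither the annotation release nor a strand setting. Symbols and positions came from GENCODE M21 on GRCm38. Where tested rows shared a symbol, the row with the highest level was kept for naming and lists, which dropped 7 rows.

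Expected counts were rounded and fitted with edgeR 4.0.16 in R 4.3.3: TMM, filterByExpr (minimum count 10, minimum total 15), 1 coefficient for each of the 4 groups, glmQLFit and glmQLFTest, Benjamini-Hochberg adjustment over the 17360 genes tested. Log2 ratios use a prior count of 0.125, SE is the absolute log2 ratio over the square root of F, and intervals are 95% t intervals. Unless a rise or fall is tied to a call, values are descriptive. The fit was tested on simulated data. Alternatives were DESeq2 1.42.0, limma-voom 3.58.1, other scalings and filters, embryo sex, separate fits, a replicate block, thinning of the Hand2 counts to 39.98% and leaving out each library.

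Members and lists were chosen with earlier results of these data known. Named genes are both targeted genes and the following. Among curated genes of at least 5 CPM they are the 10 highest and 10 lowest called differences, the 6 with the smallest p, 8 per direction that responded alike and 8 opposite ones. List members with a called difference are named too (all or up to 4 per list), and posterior, SHH response and anterior members with a called effect. Of the genes this rule picks, 3 are not reported here, though they stayed in the fits and counts. Genes named outside this rule, to spell out small counts or lists, were chosen after their values were seen.

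Total counts of 23.3 to 68.6 M limit counting error, but averaged over genes replicates differed by more than that, so errors are those between replicates. Mean chi-square per gene, ribosomal-RNA-like genes included, was 209 and 223 in the pairs with Hand2-deficient replicate 1. It was 14.0 to 29.6 in all other pairs. Such a mean does not show that counting error is small for genes of few counts, such as Shh. Without molecular identifiers, reads cannot be counted as independent molecules.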

Additional observations from a re-analysis of the deposited data

Results flagged for a closer look

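The named genes below are flagged because their effect differed between the comparisons by the test of the difference itself (edgeR's quasi-likelihood F test, Benjamini-Hochberg adjustment over all genes tested). All values are Hand2 effect minus Tbx3 effect on the log2 scale, and their per-library levels, with the omissions that ended a call, are given above.

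In the posterior and SHH response lists the values were -6.55 for Hand2, -3.63 for Shh, -2.10 for Hoxd13, -0.90 for Sall1 and -0.42 for Ets2, then -1.70 for Gli1, -1.25 for Ptch1 and -0.53 for Ccnd1. The hindlimb gene Pitx1 had -2.99 and the ridge gene Fgf9 -1.68. In the oxygen response they were -2.01 for Bhlhe40, -1.96 for Ndrg1, -1.79 for Pdk1, -1.76 for Egln3, -1.29 for Ankrd37, -0.90 for Slc2a1, -0.89 for Ero1l, -0.89 for P4ha1 and -0.67 for Egln1. Glycolysis genes had -1.30 (Pfkfb3), -1.05 (Tpi1), -0.95 (Aldoa) and -0.63 (Gpi1). Other genes with the lower Hand2 effect were Stc2 (-2.30), Gja3 (-2.26), Pianp (-2.03), Jag1 (-0.97), Map1b (-0.76), Cldn6 (-0.57), Alkbh5 (-0.53) and Olfm1 (-0.44).

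With the higher Hand2 effect, the mesenchyme and anterior genes had 1.29 (Tbx18), 0.74 (Lhx2), 0.71 (Prrx2) and 0.67 (Asb4), and the retinoic acid carrier gene Crabp2 had 0.32. Matrix and adhesion genes had 1.96 (Lama2), 1.84 (Col6a3), 1.81 (Sned1), 1.66 (Pcdhgb6) and 1.27 (Pcdh17). Hand2os1 had 2.25, Wif1 1.67, Cwc22 1.64, Nrk 1.58, Entpd1 1.52, Ttc9c 0.99, Gja4 0.97, Klf11 0.97, Gltp 0.82, Cpxm1 0.52 and Rplp0 0.48.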

How the results depend on the processing

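The main counts were 292 genes whose response differed, 91 called in both comparisons in the same direction, 16 in opposite directions and 79 alike. Under RLE scaling, no low-count filter, a minimum count of 50, thinning of the Hand2 counts, or without ribosomal RNA and mitochondrial genes, these counts stayed within 1.5 times of the main ones (242 to 348, 78 to 104, 12 to 22 and 66 to 91). DESeq2 gave 878, 260, 51 and 224. Limma-voom gave 250, 41, 8 and 32. With embryo sex as covariate they were 207, 34, 4 and 26, and with separate fits of each series 447, 27, 4 and 22. An interval within 0.5 left 48 alike genes. With the replicate block the counts were 69, 13, 1 and 10. Same-numbered libraries did not deviate together (correlations 0.02, 0.03 and -0.01 for Tbx3, -0.13, 0.03 and 0.04 for Hand2), so the numbers were not taken as pairs. Leaving out 1 library gave 123 to 336 differing genes, 33 to 81 in the same direction, 3 to 21 opposite and 27 to 63 alike. The lowest counts of differing genes, 123 and 124, came without Hand2 wild-type replicate 1 and without labelled Tbx3-deficient replicate 2. Without Hand2-deficient replicate 1, which stood apart in ribosomal RNA, 148 were called. No called difference of a named gene changed sign under any alternative run, while differences near 0 of genes that responded alike (Ccn4, Aplp1, Cav1, Snx7 and Nim1k among them) did. Of 52 named genes with a called difference, 29 kept it in all 12 omissions, and these 29 kept it with embryo sex as covariate too. That covariate ended 10 named calls (Shh, Hoxd13, Ets2, Ccnd1, Lhx2, Asb4, Crabp2, P4ha1, Ankrd37 and Entpd1), limma-voom those of Shh, Asb4, Entpd1 and Col6a3, and thinning of the Hand2 counts those of Shh and Ankrd37. RLE scaling ended the calls of Lhx2 and Asb4, and the replicate block ended 29 of the 52. Among calls kept in all 12 omissions, the block ended those of Bhlhe40, Jag1, Pfkfb3, Gpi1, Map1b, Gja4, Olfm1, Cldn6 and Hand2os1. Posterior and SHH response genes had 1 to 4 and 2 to 4 called differences over those omissions, and 2 and 3 with the sex covariate. The cause of these changes was not tested. Depth limits precision most at low counts, though Fgf9 and Pitx1 kept their calls under thinning.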

Other observations

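The genes in this section were picked after their values were seen and are descriptions. Further genes with a called difference and a called rise in the libraries labelled Tbx3-deficient alone, outside the hypoxia and glycolysis lists, included Ak4, an adenylate kinase (Tbx3 effect 0.89, Hand2 effect -0.33), Fam162a (0.98 and -0.08), Higd1a (0.63 and -0.18), the secreted Stc1 (1.13 and -0.15) and Loxl2, a collagen cross-linking oxidase (1.02 and -0.10). Bhlhe41, the relative of Bhlhe40, rose in those libraries and fell with Hand2 loss (1.44 and -0.84), at under 4 CPM on average in every group. Epas1, the gene of the second HIF alpha subunit, went the other way, with a Hand2 effect of 0.58 and a Tbx3 effect of -0.04 (difference 0.62, adjusted p 0.0331 by edgeR).

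Connexin genes, whose products join cells through gap junctions, differed in both directions. Beside Gja3 and Gja4, Gjc1 fell with Hand2 loss (-0.73, Tbx3 effect -0.06, difference -0.67), and Gja5 fell in the libraries labelled Tbx3-deficient (-0.85, Hand2 effect 0.39, difference 1.24). Cdk6, a kinase of the G1 phase, fell with Hand2 loss (-1.06, Tbx3 effect 0.12), and Egfr, the EGF receptor, fell in the Tbx3 series (-0.98, Hand2 effect 0.18).

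Genes without a curated symbol and pseudogenes held the smallest p-values of the whole test, and their counts are uncertain where copies share reads. Gm9625 stood at 2.43 CPM in Tbx3 wild-type and 109 CPM in labelled Tbx3-deficient libraries, and at 2.20 and 1.74 CPM in the Hand2 series (difference -5.82). Rpl34-ps1 fell to 82.7 CPM with Hand2 loss from 169 CPM, against 170 and 179 CPM in the Tbx3 series (difference -1.11), while Rpl34 itself rose (Hand2 effect 0.48, Tbx3 effect 0.07). AI506816 fell from 89.2 to 4.76 CPM with Hand2 loss, with 120 and 128 CPM in the Tbx3 series.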
